A study of Mus musculus with 23 samples.

Results

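Tuft cells are rare chemosensory cells of the intestinal epithelium. They carry a taste-like signalling cascade, make prostaglandins and leukotrienes, and are the epithelial source of interleukin 25, through which they alert the type 2 immune system to worms and protists. They arise from dividing cells of the crypt and depend on the POU-domain transcription factor Pou2f3. The 9 genes followed here were named as markers of this cell type, with earlier results of these data known but by no threshold on measured values, out of 22350 genes in the RNA-seq files, 22230 in the organoid Ribo-seq files and 22314 in the mouse Ribo-seq files. They are Pou2f3 itself, the structural and signalling markers Dclk1 (a microtubule-associated kinase), Avil (the actin-binding protein advillin) and Sh2d6 (an SH2-domain adaptor), the taste-type cation channel Trpm5, the cytokine Il25, and 3 genes of eicosanoid synthesis: Ptgs1 (cyclooxygenase 1), Alox5ap (the 5-lipoxygenase activating protein) and Ltc4s (leukotriene C4 synthase).

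The genes were measured in C57BL/6 material carrying a tamoxifen-inducible Cre. RNA-seq covered WT organoids (VillinCre.ERT2.RPL22.HA; 2 lines with 2 technical libraries each), Rptor fl/fl organoids (VillinCre.ERT2.Rptor.fl/fl; 2 lines with 2 technical libraries each) and organoids labelled stem cell enriched (SCe; VillinCre.ERT2.RPL22.HA in ENR medium with 10 µM CHIR 99021 and 1.5 mM valproic acid; 3 lines). Ribo-seq covered SCe organoids (3 lines), organoids labelled Rptor fl/fl (VillinCre.ERT2.Rptor.fl/fl.RPL22.HA; 3 lines), and the small intestine of WT mice (Lgr5Cre.ERT2.RPL22.HA; 3 mice) and Rptor fl/fl mice (Lgr5Cre.ERT2.Rptor.fl/fl.RPL22.HA; 3 mice). Villin Cre acts throughout the epithelium and Lgr5 Cre in Lgr5-positive stem cells. RPL22.HA is a Cre-dependent HA tag on a ribosomal protein through which ribosomes were pulled down for Ribo-seq, and Rptor encodes Raptor, a required part of mTORC1. The labels call the WT and Rptor fl/fl samples untreated, while the study's methods describe tamoxifen induction, in mice by a single injection of young adults of both sexes on the day before tissue was taken; SCe organoids differ from both other organoid groups in medium.

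Total estimated counts ran from 23802944 to 67598878 per RNA-seq library, from 1106178 to 8257457 per organoid Ribo-seq library and from 772077 to 8238388 per mouse Ribo-seq library, so a gene with few footprints was measured with little precision in the SCe and WT mouse libraries. Levels are given as CPM, reads or footprints scaled to a library of 1000000 by the trimmed mean of M values (TMM), with technical libraries of a line summed. The WT lines held 47.9 and 51.5 CPM of Rptor mRNA, against 14.8 and 15.5 CPM after deletion (log2 fold change −1.71, edgeR quasi-likelihood test, adjusted p = 0.00516). Rptor footprints did not follow the labels in this way. They were 15.9 to 18.7 CPM in the organoid libraries labelled Rptor fl/fl against 15.2 to 41.8 in SCe (log2 fold change −0.53, edgeR, adjusted p = 0.318), and 32.5 to 36.7 against 39.5 to 44.5 CPM in mice (−0.28, edgeR, adjusted p = 0.15). Summed over 12 immune markers, organoid RNA-seq held 2.27 to 4.87 CPM, with 3 to 7 of the markers at 0 per line. The mouse pulldowns held 1280 to 1562 CPM on the same markers and 6.29 to 45.6 CPM on Lgr5, the gene whose promoter drives the Cre. The value of 45.6 was that of Rptor fl/fl mouse 1, and the other mice held 6.29 to 11.3. Mouse 1 also stood apart from Rptor fl/fl mice 2 and 3 in Paneth markers (8888 CPM against 5489 and 5331) and enteroendocrine markers (478 against 281 and 289).

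The promoters of the genes were examined first. RefSeq windows of 250 bases before the annotated start (GRCm38.p6) were found for 6 of the 9 genes, as 7 windows: Dclk1 (both of its starts), Trpm5, Avil, Ptgs1, Sh2d6 and Ltc4s; Pou2f3, Il25 and Alox5ap had none. The windows were searched on both strands for the octamer ATGCAAAT, the sequence that POU-domain factors such as Pou2f3 are known to bind, for its first 7 letters ATGCAAA, which lie inside the octamer, and for the TATA box TATAAA. None of the 7 windows held the full octamer (1.6% of 32851 RefSeq windows did) and none held TATAAA (12.4%). Avil held the 7 letters at 2 places, beginning 115 and 15 bases before the start and once on each strand; 4.12% of all windows held them at all and 0.247% held them at 2 or more places. The Avil window (chr10:127000459-127000708, plus strand, capitals marking the matches) is shown for these matches, and the Ptgs1 window (chr2:36230176-36230425, plus strand, no match) because Ptgs1 was the gene of the group that rose in Rptor fl/fl organoids against WT.
Avil: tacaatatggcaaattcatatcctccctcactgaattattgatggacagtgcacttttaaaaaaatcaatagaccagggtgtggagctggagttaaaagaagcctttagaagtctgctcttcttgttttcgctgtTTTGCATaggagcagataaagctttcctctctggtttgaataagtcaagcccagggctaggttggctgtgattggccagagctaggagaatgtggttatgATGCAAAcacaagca
Ptgs1: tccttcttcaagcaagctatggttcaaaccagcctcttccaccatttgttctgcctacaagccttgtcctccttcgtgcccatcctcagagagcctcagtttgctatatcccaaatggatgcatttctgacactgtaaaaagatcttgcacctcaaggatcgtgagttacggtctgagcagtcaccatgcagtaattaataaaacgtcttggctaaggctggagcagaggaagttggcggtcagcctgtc

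Dclk1 (chr3:55242364-55539068, plus strand) has 2 RefSeq starts, 219364 bases apart, at positions 55242364 and 55461728. Transcripts of the first start encode the long protein with its doublecortin domains, and those of the second a short form made mainly of the kinase part. Both windows are shown because reads were divided unequally between the starts (chr3:55242114-55242363 and chr3:55461478-55461727, plus strand, no motif match).
Dclk1 first start: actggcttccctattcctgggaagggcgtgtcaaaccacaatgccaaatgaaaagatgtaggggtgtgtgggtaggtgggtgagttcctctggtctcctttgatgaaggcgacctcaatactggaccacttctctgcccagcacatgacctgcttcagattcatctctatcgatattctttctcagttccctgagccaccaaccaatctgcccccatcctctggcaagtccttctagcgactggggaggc
Dclk1 second start: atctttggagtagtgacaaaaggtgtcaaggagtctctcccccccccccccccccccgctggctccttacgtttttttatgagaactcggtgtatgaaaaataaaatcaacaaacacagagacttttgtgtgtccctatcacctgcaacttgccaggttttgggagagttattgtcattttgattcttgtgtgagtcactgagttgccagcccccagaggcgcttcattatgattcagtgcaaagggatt

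In organoid RNA-seq Dclk1, Trpm5 and Avil were lowest in SCe, intermediate in WT and highest in Rptor fl/fl organoids without overlap of the groups. Of the other 6 genes, Sh2d6, Alox5ap and Ltc4s were lowest in SCe but overlapped between WT and Rptor fl/fl in CPM. Ptgs1 was apart in Rptor fl/fl only, Pou2f3 was highest in SCe by a narrow margin in CPM, and Il25 was close to absent. The share of all genes whose groups lie apart is not given here, so non-overlap is a description only. In bulk samples fewer tuft cells and less RNA per tuft cell cannot be told apart. Dclk1 mRNA was 7.10 and 10.2 CPM in the WT lines, 11.9 and 21.2 in the Rptor fl/fl lines, and 0.301, 1.93 and 1.03 in the SCe lines. Trpm5 (chr7:143069153-143094642, minus strand) was 4.83 and 7.16 CPM in WT, 8.80 and 13.3 in Rptor fl/fl, and 0.903, 2.29 and 2.22 in SCe. For both genes the 3 groups did not overlap. Avil (chr10:127000709-127020994, plus strand) was 3.55 and 4.92 CPM in WT, 5.59 and 9.23 in Rptor fl/fl, and 0.803, 2.45 and 2.05 in SCe, again without overlap. Sh2d6 (chr6:72513641-72521707, minus strand) was 1.34 and 2.10 in WT, 2.05 and 3.66 in Rptor fl/fl, and 0, 0.173 and 0.258 in SCe. In CPM, WT and Rptor fl/fl thus overlapped and SCe stood below both. In TPM, a measure scaled per length, Sh2d6 was lower in WT (1.52 and 2.27) than in Rptor fl/fl (2.53 and 4.25) without overlap.

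Pou2f3 (chr9:43123939-43210369, minus strand), the factor that specifies the lineage, had another order. It was 3.70 and 3.99 CPM in WT, 3.54 and 5.37 in Rptor fl/fl, and 5.48, 6.55 and 5.42 in SCe. In CPM all 3 SCe lines lay above the WT and Rptor fl/fl lines, by a narrow margin over Rptor fl/fl line 2. In TPM the SCe and Rptor fl/fl lines overlapped, with Rptor fl/fl line 2 at 3.02 and SCe line 3 at 2.64. Il25 (chr14:54932695-54935837, plus strand) had 4 reads in all WT libraries, 4 in all Rptor fl/fl libraries and 2 in all SCe libraries, which was too few to test.

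The eicosanoid genes did not share a pattern among themselves. Ptgs1 (chr2:36230426-36252272, plus strand) was 1.15 and 1.43 CPM in WT, 17.1 and 9.85 in Rptor fl/fl, and 1.67, 0.345 and 0.378 in SCe, so Rptor fl/fl stood apart while WT and SCe overlapped. Alox5ap (chr5:149264767-149288153, plus strand) was 0.737 and 1.19 in WT, 0.774 and 1.52 in Rptor fl/fl, and 0.067, 0.204 and 0.275 in SCe. Ltc4s (chr11:50236461-50238616, minus strand) was 0.642 and 0.786 in WT, 0.755 and 1.01 in Rptor fl/fl, and 0.468, 0.345 and 0.344 in SCe. In both genes SCe was below the other groups, and WT and Rptor fl/fl overlapped in CPM. In TPM they overlapped for Alox5ap but not for Ltc4s (2.02 and 2.41 in WT, 2.59 and 3.32 in Rptor fl/fl).

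**Figure D1:**
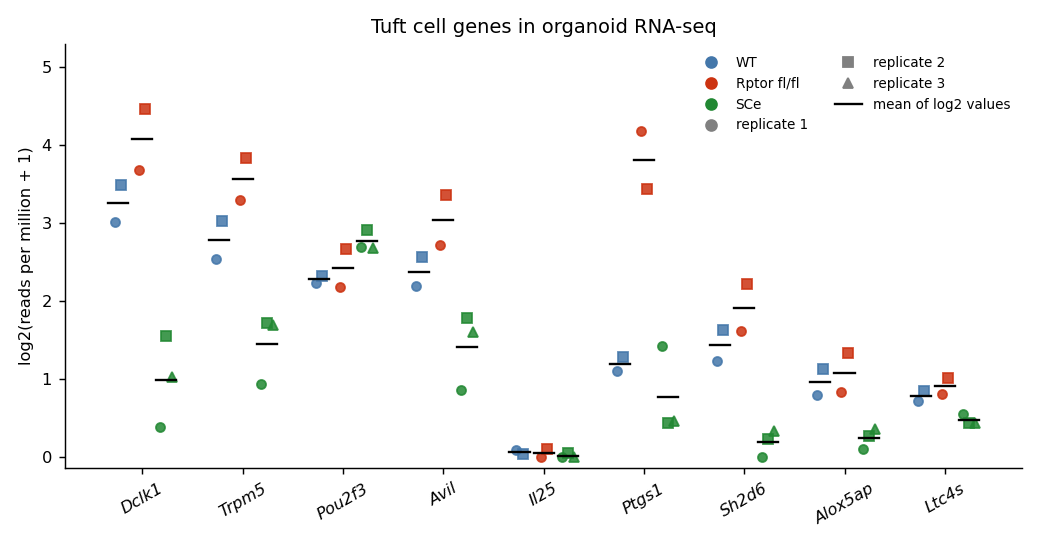
Level of each tuft cell gene in organoid RNA-seq, as log2(CPM + 1), with 1 point per line (technical libraries summed), colour for the group, shape for the replicate number and a bar for the mean of the log2 values. The SCe points lie lowest for Dclk1, Trpm5, Avil, Sh2d6, Alox5ap and Ltc4s and highest for Pou2f3, and Ptgs1 is raised in the Rptor fl/fl lines, at 17.1 and 9.85 CPM.

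Levels of different genes can be compared only per unit of length, for which the deposited TPM values, which are scaled per length, were used. In WT organoids 7 of the 9 genes lay close together, from a mean of 1.60 TPM for Alox5ap to 2.41 TPM for Trpm5, and neighbours in that order (Trpm5, Ltc4s, Avil, Pou2f3, Dclk1, Sh2d6, Alox5ap) did not differ beyond the spread of the lines. Ptgs1 was 0.61 ± 0.087 TPM (SD, n = 2) and Il25 0.061 ± 0.042 TPM in WT. In Rptor fl/fl organoids Ptgs1 had the highest mean of the 9, at 7.0 ± 2.9 TPM (SD, n = 2), ahead of Avil at 5.24 ± 1.02 TPM, Trpm5 at 4.61 ± 1.27 TPM and Dclk1 at 4.41 ± 1.31 TPM, whose ranges overlapped. In SCe organoids Pou2f3 had the highest mean, at 2.99 ± 0.337 TPM (SD, n = 3), and its lowest line was above the highest line of every other gene of the group. The next were Ltc4s at 1.17 ± 0.434 TPM and Avil at 1.16 ± 0.455 TPM, and Sh2d6, at 0.151 ± 0.138 TPM, was the lowest of those with reads beyond Il25.

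The first comparison set Rptor fl/fl against WT organoids. By their labels the WT lines carried RPL22.HA and the Rptor fl/fl lines did not, so the tag allele and Rptor cannot be told apart. Of the 8 genes tested Ptgs1 alone was called, with a log2 fold change of 3.38 ± 0.34 (SE; edgeR, adjusted p = 0.0109). Across all genes 11.6% were called higher and 11.0% lower. Ptgs1 kept its call and direction under all 12 alternatives, with an adjusted p of at most 0.0499. The other 7 had positive estimates that did not pass: Dclk1 0.94 (95% interval 0.07 to 1.80, adjusted p = 0.107), Trpm5 0.88 (0.13 to 1.63, adjusted p = 0.0886), Avil 0.81 (0.01 to 1.61, adjusted p = 0.123) and Sh2d6 0.73 (−0.27 to 1.74, adjusted p = 0.224). Ltc4s (0.31), Alox5ap (0.26) and Pou2f3 (0.21) had intervals that reached from −0.91 to 1.42 at their widest. The median over the 8 was 0.77, beside −0.005 over all genes tested. DESeq2 called Dclk1 (adjusted p = 0.0205) and Trpm5 (adjusted p = 0.0222) as well. Markers of other epithelial cells moved in the same comparison: 5 of 7 goblet markers were called higher, and 6 of 7 Paneth and 5 of 8 stem cell markers lower. Summed, goblet markers were at 2952 and 4056 CPM in Rptor fl/fl and 1592 and 1695 in WT, and Paneth markers at 598 and 1262 against 3632 and 4585 CPM. Their part in the tuft cell gene values was not tested.

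The second comparison set SCe organoids against WT. Stem cell markers were mixed in direction. Of 8 tested 2 were called lower and the others did not pass, with 5 estimates above 0, 3 below and a median of 0.16. Lgr5 was 337, 222 and 219 CPM in SCe and 215 and 197 in WT (log2 fold change 0.35, edgeR, adjusted p = 0.244). The sum of the 8 markers was 2493 to 3408 CPM in SCe against 4959 and 6710 in WT. Dclk1 fell by 2.93 ± 0.70 on the log2 scale (SE; edgeR, adjusted p = 0.0254), Sh2d6 by 3.41 ± 0.87 (adjusted p = 0.0305), Alox5ap by 2.29 ± 0.56 (adjusted p = 0.0273) and Trpm5 by 1.69 ± 0.45 (adjusted p = 0.0356). Pou2f3 rose by 0.62 ± 0.18 (edgeR, adjusted p = 0.0436). Thus 4 of 8 tested genes were called lower and 1 higher, beside 19.9% and 22.4% of all genes. Sh2d6 passed the count filter through WT alone, so its direction was fixed. Of the 7 that passed in both groups 3 were called lower and 1 higher. Avil (−1.22, 95% interval −2.49 to 0.05, adjusted p = 0.105), Ltc4s (−0.88, −1.69 to −0.07, adjusted p = 0.0771) and Ptgs1 (−0.73, −2.72 to 1.27, adjusted p = 0.488) did not pass. These calls depended on single lines: none of the 8 passed without WT line 1, without WT line 2 or without SCe line 3, 1 passed without SCe line 2, and all 8 passed without SCe line 1. That line was the shallowest of the SCe libraries and stood apart from lines 2 and 3 in other cell types, with 246 CPM of enterocyte markers against 6082 and 7119, 3.71 of enteroendocrine markers against 21.8 and 28.8, and 1164 of Paneth markers against 2996 and 3492. Over all 13 alternatives the log2 fold change stayed between −3.62 and −2.52 for Dclk1 and between 0.52 and 0.67 for Pou2f3, with adjusted p up to 0.129 and 0.228. Other markers moved as well: 6 of 7 goblet, 5 of 8 enteroendocrine and 3 of 4 mast cell markers tested were called lower, and 3 of 4 stromal and 2 of 2 smooth muscle markers tested higher. Stromal markers summed to 70.7 to 116 CPM in SCe and to 1.92 to 3.87 CPM in WT and Rptor fl/fl, and smooth muscle markers to 1.27 to 1.62 CPM in SCe and 0.151 and 0.161 CPM in WT. Their part in the tuft cell gene result was not tested.

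The third comparison, of Rptor fl/fl with SCe organoids, uses the samples of the other 2 again and adds no independent samples. Here 7 of 8 tested genes were called higher and 0 lower, beside 21.0% and 21.8% of all genes. Sh2d6 passed the count filter through Rptor fl/fl alone, and of the 7 that passed in both groups 6 were called higher. Dclk1 was higher by a log2 fold change of 3.88 ± 0.71 (SE; edgeR, adjusted p = 0.0112), Ptgs1 by 4.16 ± 0.79 (adjusted p = 0.0124), Sh2d6 by 4.16 ± 0.88 (adjusted p = 0.0167), Trpm5 by 2.60 ± 0.45 (adjusted p = 0.00941), Alox5ap by 2.57 ± 0.59 (adjusted p = 0.0218), Avil by 2.05 ± 0.51 (adjusted p = 0.0266) and Ltc4s by 1.21 ± 0.33 (adjusted p = 0.0359). Pou2f3 was at −0.38 (95% interval −1.01 to 0.25, adjusted p = 0.265). The number called was 0 without Rptor fl/fl line 2, 1 without Rptor fl/fl line 1, 4 without SCe line 2 and 5 without SCe line 3, and the direction of all 8 genes was kept in each. Markers of other secretory cells moved in the same comparison: all 7 goblet markers tested and 4 of 8 enteroendocrine markers were called higher, and 3 of 7 Paneth, 3 of 4 stromal and 2 of 3 smooth muscle markers lower. Their summed level ran from 2952 to 4056 CPM for goblet markers in Rptor fl/fl and from 245 to 429 in SCe; their part in the tuft cell gene result was not tested.

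**Figure D2:**
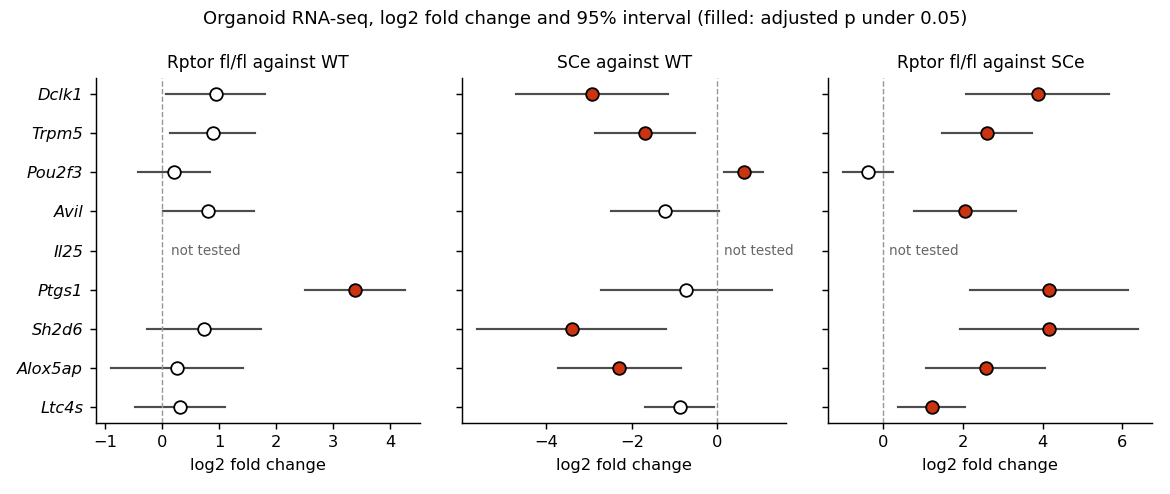
Log2 fold change (points) and 95% interval (lines) of each tuft cell gene in the 3 organoid RNA-seq comparisons, from edgeR; filled points have an adjusted p under 0.05. Ptgs1 is the filled point in the first panel, Pou2f3 lies opposite to the other filled points in the second, and 7 of 8 genes are filled to the right in the third.

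The starts of Dclk1 were used unequally. Of the 11 annotated Dclk1 sequences counted, 3 begin within 500 bases of the first start, 7 within 500 bases of the second and 1 elsewhere. The second start took 33.9% and 36.0% of the Dclk1 reads in the WT lines and 31.7% and 32.7% of those in Rptor fl/fl. In the SCe lines it took 0 of 123 reads, which allows a share of up to 2.44%, 0 of 60, which allows up to 5%, and, in line 1, 4 of 9. The limits of both deeper SCe lines lay below the shares of the WT and Rptor fl/fl lines, and line 1 held too few reads to tell. Among footprints, the libraries labelled Rptor fl/fl held 0 of 130 on second-start sequences, which allows up to 2.31%; the WT mice held 0 of 11, 5.7 of 34 and 0 of 92, and the Rptor fl/fl mice 10.9 of 53, 31 of 61 and 15.1 of 155. RNA-seq was counted on whole transcripts, organoid footprints on coding sequences and mouse footprints on sequences that include the 5′ UTR. The shares therefore cannot be compared between these assays. Salmon divides reads among sequences that overlap, and the kinase part is common to both starts. These shares are therefore estimates, and the limits cover counting error only. Trpm5 and Ptgs1 showed no such division: Trpm5-201 held 95% to 100% of Trpm5 reads in every line, and Ptgs1 had a single sequence. Sh2d6-209, the main form in both WT lines (74% and 95%) and both Rptor fl/fl lines (62% and 95%), had 0 reads in all SCe lines, which held 26 Sh2d6 reads in all. Pou2f3 reads were split between 2 sequences with no order by group, from 39% to 100% on Pou2f3-201.

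A wider list of 52 genes known for tuft cells or their pathways was then counted by role; it was drawn up with earlier results of these data known and gets no test as a list. Between Rptor fl/fl and WT organoids, 6 of 44 tested were called higher and 2 lower (11.6% and 11.0% of all genes), with a median log2 fold change of 0.59. Of the 35 that passed the count filter in both groups, 5 were higher and 2 lower. Of the 6 increases, 2 lay in eicosanoid synthesis and 2 in taste-type transduction. Ptgs2, the inducible cyclooxygenase, rose by 3.40 on the log2 scale (edgeR, adjusted p = 0.0162) and Hpgds, which makes prostaglandin D2, by 2.30 (adjusted p = 0.0128). Gnat3, the taste G protein gustducin, went from 2 to 36 reads (edgeR, adjusted p = 0.0193). It passed the count filter through Rptor fl/fl alone, so its direction was fixed. Il4ra, a receptor chain for interleukins 4 and 13, rose by 0.67 (edgeR, adjusted p = 0.0199) and the calcium channel Itpr3 by 0.35 (adjusted p = 0.0347). Cd24a, a surface glycoprotein shared with other epithelial cells, fell by 0.81 (edgeR, adjusted p = 0.0248). None of the 12 immune-type adaptors, kinases and surface proteins was called by edgeR and 0 had an unadjusted p under 0.05, while all 12 estimates were above 0, with a median of 0.68.

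Between SCe and WT, 4 of 40 tested genes of the wider list were called higher and 14 lower (22.4% and 19.9% of all genes). Of the 31 that passed the count filter in both groups, 3 were higher and 10 lower. The lower ones included Spib, an ETS-family transcription factor, at −2.80 on the log2 scale (edgeR, adjusted p = 0.00734), Alox5, the lipoxygenase that Alox5ap serves, at −2.92 (adjusted p = 0.0113), the keratin Krt18 at −0.70 (adjusted p = 0.00445) and the prostaglandin E synthase and co-chaperone Ptges3 at −0.49 (adjusted p = 0.00503). Ffar3, a receptor for short-chain fatty acids, went from 25 reads in WT to 1 in SCe (edgeR, adjusted p = 0.0109). Alox5 and Ffar3 passed the count filter through WT alone, so their direction was fixed. Tslp, an epithelial cytokine, was at 0 reads in every WT and Rptor fl/fl library and at 0.31 to 0.368 CPM in the SCe lines (50 reads; edgeR, adjusted p = 0.00551 against WT). It passed the count filter through SCe alone, the group in which stromal markers were also higher, and the part of stromal cells was not tested. Between Rptor fl/fl and SCe, 21 of 45 were called higher and 6 lower (21.0% and 21.8% of all genes), or 15 and 3 of the 31 that passed the count filter in both groups. Among all those called were Krt18 (1.11, edgeR, adjusted p = 0.00132), Alox5 (4.00, adjusted p = 0.00385), Hpgds (4.40, adjusted p = 0.00488), Spib (3.52, adjusted p = 0.00564) and Il4ra (0.99, adjusted p = 0.00388) as higher and Tslp as lower (adjusted p = 0.00524). Alox5 passed the count filter through Rptor fl/fl alone and Tslp through SCe alone, so the directions of both were fixed. By role, 9 of the 12 immune-type genes were called higher, as were 4 of 10 in eicosanoid synthesis, where 3 were lower. Among these, Inpp5d, Ptprc and Alox5 passed the count filter through Rptor fl/fl alone. Ptges and Tbxas1, called lower, passed through SCe alone, so the directions of all these were fixed. The mast cell marker list, which includes Kit, a receptor also made by epithelial cells, was at 36.4 to 67.7 CPM in Rptor fl/fl and 6.69 to 10.8 in SCe, with 3 to 6 of its 8 genes at 0 in each line; its part in these counts was not tested.

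**Figure D3:**
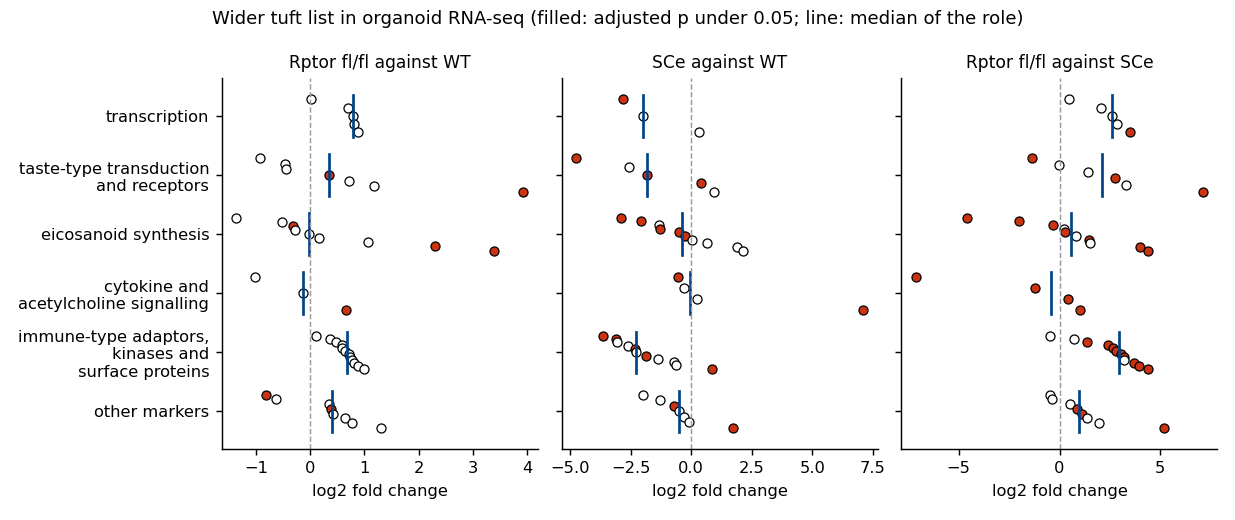
Log2 fold change of each tested gene of the wider tuft list in the 3 organoid RNA-seq comparisons, arranged by role; filled points have an adjusted p under 0.05 (edgeR) and the vertical line is the median of the role. Tslp (0 reads in WT and Rptor fl/fl) and Gnat3 (0 reads in SCe) are drawn at fitted values that are no bound; the median over the list is the same, 1.40 in the third panel and −0.70 in the second, with them at their bounds.

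Across the 7 RNA-seq lines the genes of the group followed a common profile to unequal degrees. Pearson's r of each gene's log2(CPM + 1) with the mean standardized profile was 0.98 for Trpm5 and Sh2d6, 0.97 for Dclk1 and Avil, 0.95 for Alox5ap, 0.94 for Ltc4s, 0.76 for Ptgs1 and −0.41 for Pou2f3, each of which is itself part of that mean. Among 15127 other genes the most alike over the 7 lines were Gm4787 (r = 0.998), Slc10a5 (0.997), Vav1 (0.994), Klrb1c (0.991) and Cd300lf (0.991). Vav1, a signalling adaptor of blood cells, and Cd300lf, a surface receptor, are also on the wider list. Slc10a5, a member of the bile acid transporter family, was the most abundant of the 5, with means of 28.1 CPM in WT, 39.2 in Rptor fl/fl and 17.4 in SCe. The points share 3 groups and these r values describe the order of the groups.

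In organoid Ribo-seq, footprints on Dclk1, Trpm5 and Avil were higher in the libraries labelled Rptor fl/fl than in SCe, and those on Pou2f3 overlapped. Dclk1, Trpm5 and Avil passed the count filter through the libraries labelled Rptor fl/fl alone, so their direction was fixed and their calls are no support for a change of the group. Dclk1 footprints were 9.95, 4.28 and 5.23 CPM in the libraries labelled Rptor fl/fl (130 footprints) and 0 in all 3 SCe libraries. Against a floor of 3 footprints in each SCe library this was at least 3.99-fold higher. At the footprints per mRNA read of Rptor fl/fl, the Dclk1 mRNA of SCe would give 3.38 footprints in the SCe libraries together. The same reckoning gave 9.52 for Trpm5 (11 seen), 17.3 for Avil (19), 34.8 for Pou2f3 (23) and 2.99 for Ltc4s (8). The Rptor fl/fl lines of the RNA-seq and Ribo-seq differ in genotype, and the cause of the missing Dclk1 footprints was not tested. Trpm5 had 10.3, 5.07 and 7.41 CPM against 1.62, 3.41 and 0.923 in SCe (log2 fold change 2.19 ± 0.56 SE, edgeR, adjusted p = 0.0307). Avil had 12.6, 6.66 and 8.87 against 0.541, 3.41 and 3.23 (1.91 ± 0.53 SE, edgeR, adjusted p = 0.0422). In all 3 genes the groups did not overlap. How many of all genes lie apart in these libraries is not given here, so this is a description only.

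Pou2f3 had 4.48, 2.85 and 3.89 CPM against 4.33, 5.12 and 2.08 in SCe, which overlapped (log2 fold change 0.09, 95% interval −1.03 to 1.21, edgeR, adjusted p = 0.927). Across all genes 6.63% were called higher and 9.84% lower. The 1 tuft cell gene that passed the filter in both groups, Pou2f3, was not called. With each library labelled Rptor fl/fl left out in turn, Trpm5 and Avil did not pass (Trpm5 adjusted p 0.0562 to 0.126, Avil 0.0725 to 0.152); without SCe library 2 Avil did not pass (0.0705), and without SCe library 3 Trpm5 did not (0.0814). The other 5 had too few footprints to test. Sh2d6 had 2.65, 2.38 and 0.851 CPM against 0 in SCe (38 and 0 footprints). Against a floor of 3 footprints in each SCe library Sh2d6 was at least 1.21-fold higher, and its 95% counting interval began at 3.51-fold. Ptgs1 had 27 footprints against 1 (9.65-fold in CPM, 95% counting interval 1.59 to 395) and Alox5ap 20 against 1 (7.15-fold, 1.14 to 296). Ltc4s was 2.16, 0.476 and 0.608 CPM against 1.62, 0.853 and 0.923, which overlapped, and Il25 had 0 footprints in all 6 libraries.

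Of the wider list 15 genes had enough organoid footprints to test, and 3 were called higher and 1 lower, beside 6.63% and 9.84% of all genes. Pla2g4a, the phospholipase that releases arachidonic acid for eicosanoid synthesis, was higher by 1.07 on the log2 scale (edgeR, adjusted p = 0.0119), Ptpn6, a phosphatase of immune-type signalling, by 0.84 (adjusted p = 0.0206) and Krt18 by 0.72 (adjusted p = 0.0462). Cd24a was lower, at −1.05 (edgeR, adjusted p = 0.0207). In the same libraries 6 of 7 goblet, 3 of 5 enteroendocrine and 4 of 8 enterocyte markers tested were called higher and 4 of 8 stem cell markers lower. Enteroendocrine markers summed to 38.4 to 80.2 CPM in SCe against 501 to 590 in the libraries labelled Rptor fl/fl. Stromal markers summed to 143 to 811 CPM in SCe against 5.86 to 10.9 in the libraries labelled Rptor fl/fl. Their part in the footprint values of the tuft cell genes was not tested.

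**Figure D4:**
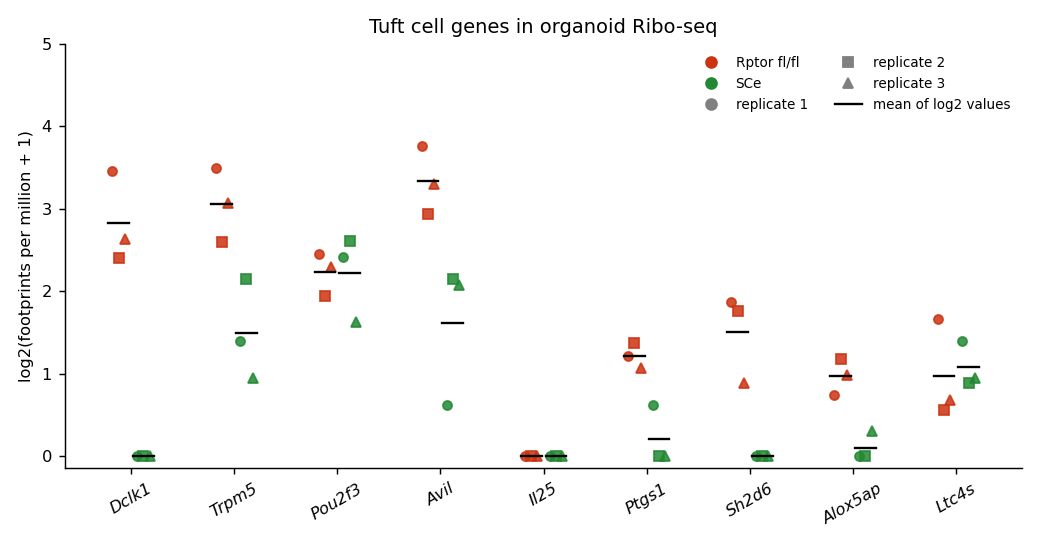
Footprints on each tuft cell gene in organoid Ribo-seq, as log2(CPM + 1), with 1 point per library, red for the libraries labelled Rptor fl/fl, green for SCe and a bar for the mean of the log2 values. Dclk1 and Sh2d6 are at 0 in all 3 SCe libraries, and the groups overlap for Pou2f3 and Ltc4s.

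Translation efficiency, the footprints of a gene relative to its mRNA, was compared between Rptor fl/fl and SCe by an interaction term. None of the 4 tuft cell genes tested was called (edgeR; 0 of 4 had an unadjusted p under 0.05, and DESeq2 called 0), beside 1.12% of all genes higher and 1.81% lower. The difference was −0.31 for Trpm5 (95% interval −2.07 to 1.45, adjusted p = 0.874), −0.07 for Avil (−1.83 to 1.69, adjusted p = 0.98) and 0.55 for Pou2f3 (−0.66 to 1.75, adjusted p = 0.63). For Trpm5 and Avil the intervals leave room for differences of over 1 on the log2 scale in either direction. Dclk1 had no footprints in SCe and gives no usable estimate. None of the 15 wider-list genes tested was called by edgeR either, with a median of −0.33; 2 of them, Il4ra and Il13ra1, had an unadjusted p under 0.05. Ptgs1 could not be tested, but its place among the 9 genes differed between the assays. Per unit of length it was first of the 9 in Rptor fl/fl RNA-seq and eighth in the Ribo-seq of the libraries labelled Rptor fl/fl, with 17.1 and 9.85 CPM of mRNA against 1.33, 1.59 and 1.09 CPM of footprints. In WT mice it had the highest mean footprints per kilobase, at 20.7 ± 3.72 (SD, n = 3) when scaled so that all genes sum to 1000000, although Trpm5 in mouse 1, at 21.0, lay within its range of 17.7 to 24.9, and in Rptor fl/fl mice it was second at 26.3 ± 0.703, with Alox5ap first at 27.8 ± 3.82 and overlapping it. The RNA-seq and Ribo-seq of Rptor fl/fl organoids came from lines of different genotype, without and with RPL22.HA, so that this contrast has no matched libraries.

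In the small intestine of mice labelled Rptor fl/fl with Lgr5 Cre, whose Rptor footprints were not called lower, Alox5ap was called among the tuft cell genes and the other 6 tested did not pass. Its footprints were 2.52, 6.82 and 4.91 CPM in WT mice (44 footprints) and 13.1, 12.4 and 12.4 in Rptor fl/fl mice (180 footprints). All Rptor fl/fl mice lay above all WT mice (log2 fold change 1.28 ± 0.25 SE, edgeR, adjusted p = 0.00269), and without WT mouse 3 it was 1.176 with an adjusted p of 0.0507. Alox5ap passed the count filter through the Rptor fl/fl mice alone, so its direction was fixed, and 0 of the 6 that passed in both groups was called by edgeR (2 of them, Sh2d6 and Ptgs1, had an unadjusted p under 0.05, and DESeq2 called 0), beside 7.47% of all genes higher and 5.97% lower.

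The structural and signalling markers and Trpm5 did not pass the test. Dclk1 had 13.8, 15.5 and 16.7 CPM in WT and 17.4, 18.5 and 19.5 in Rptor fl/fl mice (0.23, 95% interval −0.12 to 0.57, edgeR, adjusted p = 0.415). Trpm5 had 25.2, 18.2 and 15.8 against 20.7, 22.4 and 19.0 (0.19, −0.19 to 0.57, adjusted p = 0.546), with overlapping groups. Avil had 15.1, 17.7 and 20.7 against 21.6, 21.5 and 24.3 (0.26, −0.08 to 0.60, adjusted p = 0.321), and Sh2d6 had 7.55, 6.36 and 8.73 against 12.1, 13.9 and 10.2 (0.58, 0.09 to 1.07, adjusted p = 0.114). For Dclk1, Avil and Sh2d6 all Rptor fl/fl mice lay above the WT mice without passing the test, as they did for Ptgs1. How many of all genes lie apart in this way is not given here, so this is a description only. The intervals of Dclk1, Trpm5 and Avil keep a rise to at most 0.60 on the log2 scale. The pulldowns also held smooth muscle markers, at 1329 to 1474 CPM summed in WT and 1261 to 1439 in Rptor fl/fl mice. The part of such cells in these values was not tested.

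The other eicosanoid genes did not pass either. Ptgs1 had 31.5, 29.1 and 40.4 CPM in WT and 42.6, 43.6 and 45.6 in Rptor fl/fl mice (0.33, 0.03 to 0.62, edgeR, adjusted p = 0.139); without WT mouse 3 it passed, at 0.57 with an adjusted p of 0.0497. Ltc4s had 6.29, 4.54 and 6.73 against 6.56, 8.18 and 8.05 (0.35, −0.21 to 0.91, adjusted p = 0.433). Pou2f3, with 18 and 19 footprints in all, was not tested, and Il25 had 0 footprints in all 6 mice. In the wider list 1 of 28 tested genes was called, a share below the 7.47% of all genes called higher: Il13ra1, a receptor chain for interleukin 13 (0.31, edgeR, adjusted p = 0.0436).

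Mast cells and other white blood cells also make Alox5ap, Ltc4s and Ptgs1, and their markers moved in the same libraries. The 8 mast cell markers summed to 23.9 to 33.3 CPM in WT mice and 50.8 to 54.9 in Rptor fl/fl mice. Of the 3 tested, Mcpt1, a mast cell protease of the mucosa, was higher by 1.80 on the log2 scale (edgeR, adjusted p = 0.000248) and Hdc, the histamine-forming enzyme, by 2.28 (adjusted p = 0.000366), while Kit was at 0.04 (adjusted p = 0.933). The defining mast cell genes Cpa3, Fcer1a, Ms4a2 and Tpsb2 held between 0 and 11 footprints in each group. Of 11 immune markers tested, the myeloid genes Itgam (0.71), Adgre1 (0.68) and Lyz2 (0.52) were higher and the plasma cell gene Jchain (−0.45) lower, and the summed immune level was 1489 to 1562 CPM in WT and 1280 to 1358 in Rptor fl/fl mice. Stromal markers were called higher in 5 of 7 (1027 to 1052 CPM in WT, 1264 to 1520 in Rptor fl/fl), goblet markers higher in 4 of 7 and Paneth markers lower in 4 of 7. Their part in the Alox5ap result was not tested.

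**Figure D5:**
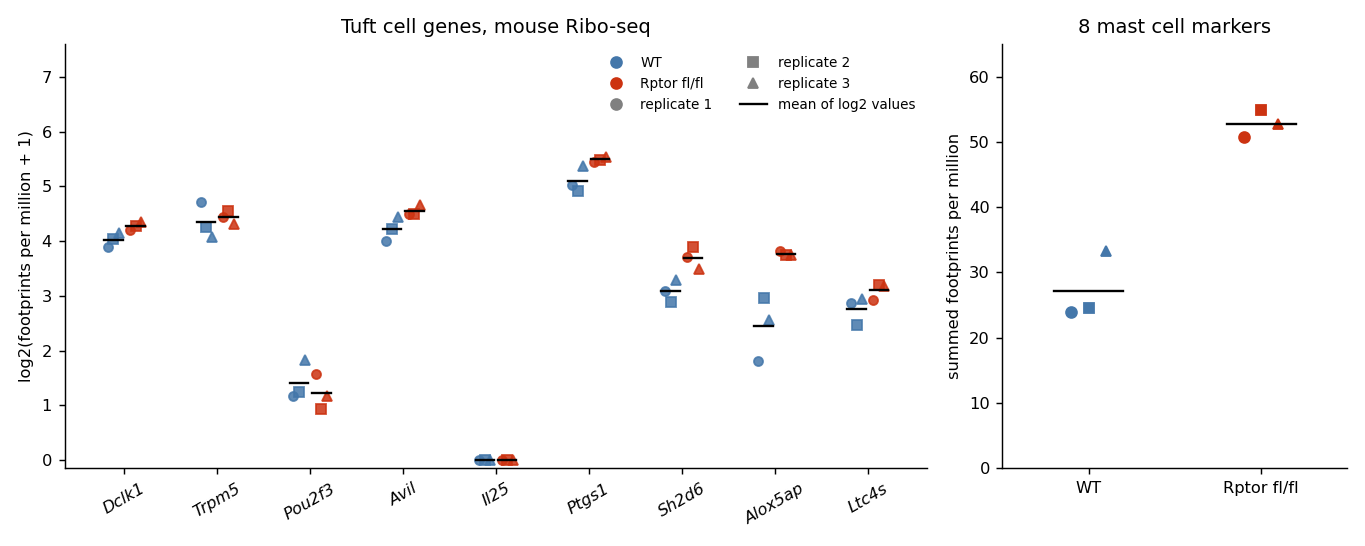
Left, footprints on each tuft cell gene in mouse Ribo-seq, as log2(CPM + 1), with 1 point per mouse, blue for WT, red for Rptor fl/fl and a bar for the mean of the log2 values. Right, summed CPM on 8 mast cell markers in the same mice, with a bar for the mean. The groups are apart for Alox5ap, at 2.52 to 6.82 CPM in WT and 12.4 to 13.1 in Rptor fl/fl, and for the mast cell sum.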

How the data were processed

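RNA-seq and Ribo-seq libraries of mouse organoids and small intestine were quantified by the authors with Salmon 1.1.0 against GENCODE vM21 (GRCm38/mm10) after trimming with cutadapt 1.18, as the labels and methods give them. The deposited files hold, per transcript, estimated counts and TPM; RNA-seq was counted on whole transcripts, organoid Ribo-seq on coding sequences with separate 5′ UTR entries (left out of gene totals), and mouse Ribo-seq on sequences that include the 5′ UTR. The effective lengths in the deposited Ribo-seq files fit long fragments, so footprints per kilobase of sequence were used there. A deposited table of the authors' own translation efficiency comparison (fold changes and p-values) was not used.

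A gene's estimated counts were the sum over its transcripts, rounded; technical libraries of one line were added together. The main test was edgeR 4.0.16 (filterByExpr, TMM, quasi-likelihood F test, Benjamini-Hochberg over all genes tested, threshold 0.05; R 4.3.3), fitted for each comparison on its own groups; translation efficiency was tested as an assay-by-group interaction, with TMM within each assay. It was tested on simulated data. The filter's minimum was also applied within each group, to find genes that passed through 1 group alone. Alternatives were DESeq2 1.42.0, other scalings, filters and length offsets, leaving out each replicate, a replicate block, separate technical libraries, 1 fit over all RNA-seq groups and added 5′ UTR entries. Replicates are separate organoid lines or mice. In the labels same-numbered lines or mice are linked by number only, and matching of lines between RNA-seq and Ribo-seq was not checked. Intervals and floors (3 counts; 95%) cover counting error only.

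The members and lists were chosen with earlier results of these data known. All 9 members are named in every comparison, the wider list by counts and up to 6 genes with the smallest adjusted p, Rptor and Lgr5 as checks, and the 5 most alike genes by r. Where calls of the wider list are counted by role, genes with a direction fixed by the count filter are also named. Figures were drawn with matplotlib.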

Additional observations from a re-analysis of the deposited data

Results flagged for a closer look

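Avil footprints outside the coding sequence were flagged because they appeared in entries that no comparison of the report uses. The 5′ UTR entries of Avil held 15 footprints in the organoid libraries labelled Rptor fl/fl (6, 9 and 0) and 1 in SCe, or 0.727 and 0.136 CPM, where 3 footprints in the SCe libraries together would be 0.409 CPM. Library 3 of those labelled Rptor fl/fl had none, so that the signal came from 2 of 3 libraries. The difference was not tested.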

How the results depend on the processing

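The limits are few replicates (2 or 3 per group) and, in the SCe and WT mouse Ribo-seq, few footprints. The counts of genes called over all genes tested were 3195 for Rptor fl/fl against WT organoids, 6309 for SCe against WT, 6452 for Rptor fl/fl against SCe, 1781 in organoid Ribo-seq, 315 for translation efficiency and 1547 in mice. With 1 replicate left out they ran from 939 to 2126, 2027 to 9530, 2509 to 9101, 669 to 2682, 25 to 951 and 897 to 1954; where this left a group with 1 line, that line was assumed to vary like the others. The tuft cell genes called then ran from 0 to 8 for SCe against WT, 0 to 7 for Rptor fl/fl against SCe and 1 to 3 in organoid Ribo-seq. Estimates that changed sign had intervals spanning 0: between Rptor fl/fl and WT organoids Pou2f3 ran from −0.10 to 0.48 and Alox5ap from −0.30 to 0.66 (−0.05 without WT line 1), in organoid Ribo-seq Pou2f3 ran from −0.31 to 0.32, and in translation efficiency Trpm5 ran from −0.85 to 0.17 and Avil from −0.48 to 0.47.

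Technical libraries taken as separate samples, which treats libraries of a line as replicates, gave 7208 genes and 4 tuft cell genes for Rptor fl/fl against WT and 1312 genes for translation efficiency. A single fit over all RNA-seq groups gave 1544 genes for Rptor fl/fl against WT. DESeq2 called 3 tuft cell genes there and 1206 genes in translation efficiency, where no count filter gave 203. Length offsets gave 2 tuft cell genes for Rptor fl/fl against WT; in the Ribo-seq they rest on effective lengths that do not suit footprints, and gave 654 genes and 1 tuft cell gene in organoids (Pou2f3 −0.014), 116 genes in translation efficiency (Trpm5 0.11, Avil 2.74) and 678 in mice (Trpm5 −0.019). Adding 5′ UTR entries put Pou2f3 at −0.020 in organoid Ribo-seq. No tuft cell gene was called in translation efficiency under any alternative. The cause of these changes was not tested.

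Same-numbered samples were not paired in the main fits. Within an assay the correlation of their deviations from the group means was 0.14 to 0.30 in RNA-seq, with 2 pairs per comparison, −0.04 to 0.03 in organoid Ribo-seq and −0.01 to 0.03 in mice. The 2 pairs of Rptor fl/fl against WT gave the same value, 0.30, and are no separate checks. Pairing between assays was not checked. SCe line 1 held the fewest enterocyte markers in both, at 246 CPM in RNA-seq (6082 and 7119 in lines 2 and 3) and 977 in Ribo-seq (3367 and 3565). The fit with the replicate number as a block called 5 tuft cell genes for Rptor fl/fl against WT (Dclk1, Trpm5, Avil and Sh2d6 beside Ptgs1), 3 of 3154 genes in all for SCe against WT, 3413 genes in all for Rptor fl/fl against SCe, 1 tuft cell gene in organoid Ribo-seq and 4 genes in translation efficiency.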

Other observations

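Footprints on the 5′ UTR entries of the other tuft cell genes were few in organoids. Dclk1 and Alox5ap each had 7 in the libraries labelled Rptor fl/fl and 0 in SCe, which at 0.339 CPM is under the 0.409 CPM that 3 footprints in the SCe libraries would give. Pou2f3 had 2 and 2, Ltc4s 3 and 2, Ptgs1 1 and 0, and Trpm5, Sh2d6 and Il25 had none in either group.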
